A study of Mus musculus with 6 samples.

Results

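Genes of the blood-retinal barrier were followed in retina plus retinal pigment epithelium (RPE) of 5XFAD mice: 10 genes, picked by name as markers of endothelial cells and of the pericytes that wrap them, of the 19401 genes listed in at least 1 of 6 RNA sequencing libraries. The 10 genes were Pecam1, Cdh5, Cldn5, Ocln, Mfsd2a, Abcb1a, Plvap, Pdgfrb, Rgs5 and Cspg4, and each was found under exactly 1 identifier and was listed in all 6 libraries. All 10 passed the filter on low counts (at least 10 counts in at least 3 libraries), which 15537 genes passed in all.

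The study asked what efavirenz (EFV), an antiretroviral drug that at low dose activates the cholesterol hydroxylase CYP46A1, does to the retina of a mouse model of Alzheimer's disease. Both groups were hemizygous 5XFAD mice bred on the B6SJL background, in which mutant human transgenes are driven by the neuronal Thy1 promoter, so the control group carried the transgenes too. Control mice drank water with the vehicle, a dilute detergent, and EFV-treated 5XFAD mice drank EFV at 0.08 mg/kg of body weight by the sample labels, which is not the dose that the study's methods state, from the age of 3 months. Both groups were sampled at the age of 9 months. Each group had 3 libraries, each from pooled tissue of 5 to 6 mice, described as male in the study's methods, so that the spread between libraries was a spread between pools; mice without the transgenes were not sequenced in these libraries. The expected counts summed to 24590278, 23455167 and 24337444 in control replicates 1, 2 and 3 and to 24487218, 24360060 and 24160101 in EFV replicates 1, 2 and 3.

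The inner blood-retinal barrier is formed by the endothelium of the retinal capillaries, whose cells are sealed by tight junctions, transport solutes selectively and carry out little transcytosis, and which depend on a dense cover of pericytes. The choriocapillaris behind the RPE is instead fenestrated, and there the RPE with its own tight junctions forms the outer barrier. Loss of junction proteins, loss of pericytes and a return of PLVAP to retinal capillaries are known features of leaking retinal vessels.

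The tissue named in the labels was borne out by its markers. The Müller cell gene Glul had a mean of 792 FPKM (fragments scaled to transcript length and library size), and Rpe65 of the RPE was measured at 4.65, 2.35 and 5.69 FPKM in control and at 6.05, 6.59 and 6.69 FPKM in EFV-treated mice. Control replicate 3 stood apart: 8 lens markers summed to 932 FPKM there, against 15.9 and 31.4 FPKM in control replicates 1 and 2 and 27.0, 9.97 and 37.9 FPKM in the EFV libraries, with Cryba1 as the most abundant. In pairs of libraries compared by chi-square over genes, the statistic per degree of freedom was between 5.47 and 13.7, so no pair differed by as little as sampling noise, and the pairs with control replicate 3 had 11.3 to 13.7. Differences in the 10 genes and in the vascular lists are therefore given with and without that library.

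Vascular transcripts were a minor part of this RNA. By mean FPKM over the 6 libraries the order was Rgs5 (12.3), Cldn5 (7.31), Plvap (6.94), Pdgfrb (3.38), Pecam1 (2.40), Abcb1a (2.12), Mfsd2a (1.31), Cdh5 (1.14), Ocln (1.11) and Cspg4 (0.23). Neighbours in this order did not overlap over the libraries for Rgs5 and Cldn5, Plvap and Pdgfrb, Pdgfrb and Pecam1, Abcb1a and Mfsd2a, and Ocln and Cspg4. The ranges overlapped for the other neighbours, and the order of Cldn5 over Plvap and that of Cdh5 over Ocln held in 4 of 6 libraries each. Rgs5 was more abundant than 70.5% of the listed genes and Cspg4 than 19.8%, and the remaining 8 genes lay between them.

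**Figure D1:**
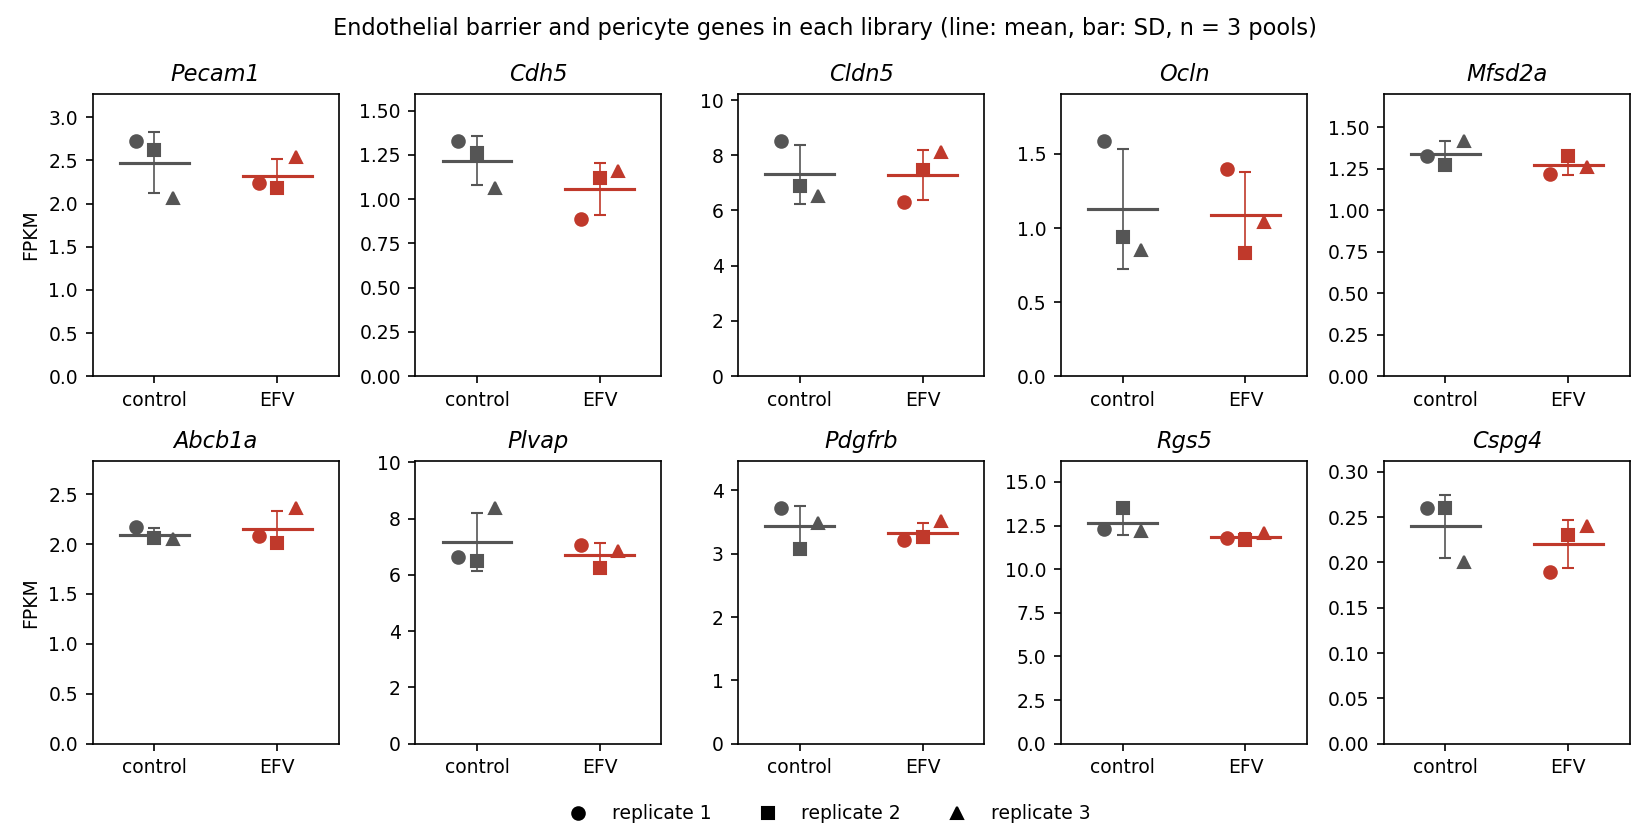
FPKM of each gene in each library, with control in grey and EFV in red, symbols for replicates 1 to 3, a line at the mean and a bar for the SD over 3 pools. The groups overlap for 9 genes, and for Rgs5 the EFV libraries (11.7 to 12.1 FPKM) lie below the control libraries (12.2 to 13.5 FPKM). In counts scaled to library size they lie below too, as they do in 4.18% of all genes tested.

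No difference between EFV-treated and control mice was detected for any of the 10 genes. In edgeR's quasi-likelihood fit, with Benjamini-Hochberg adjustment over all 15537 genes, 0 of the 10 reached an adjusted p of 0.05, as did 0 genes in all (0%). At the unadjusted p of 0.05 there were 0 of the 10 and 472 of all genes (3.04%), and with a log2 fold change of at least 0.098 in size as well (together called the limits on p and fold), 0 of the 10 and 467 of all genes (3.01%). DESeq2 called 11 genes at an adjusted p of 0.05 and none of the 10. In whole-tissue RNA, fewer vascular cells and less RNA per cell cannot be told apart, and the same holds for the absence of a difference.

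The log2 fold change of EFV over control was below 0 for 9 of the 10 genes, with a median of -0.10, while it was below 0 for 49.5% of all genes tested, whose median was 0.0012. Each of the 10 intervals included 0, and the count below 0 was between 7 and 10 when a library was left out. Without control replicate 3 the median of the 10 genes was -0.13 and 8 were below 0, and without control replicate 1 it was -0.059 and 7 were.

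**Figure D2:**
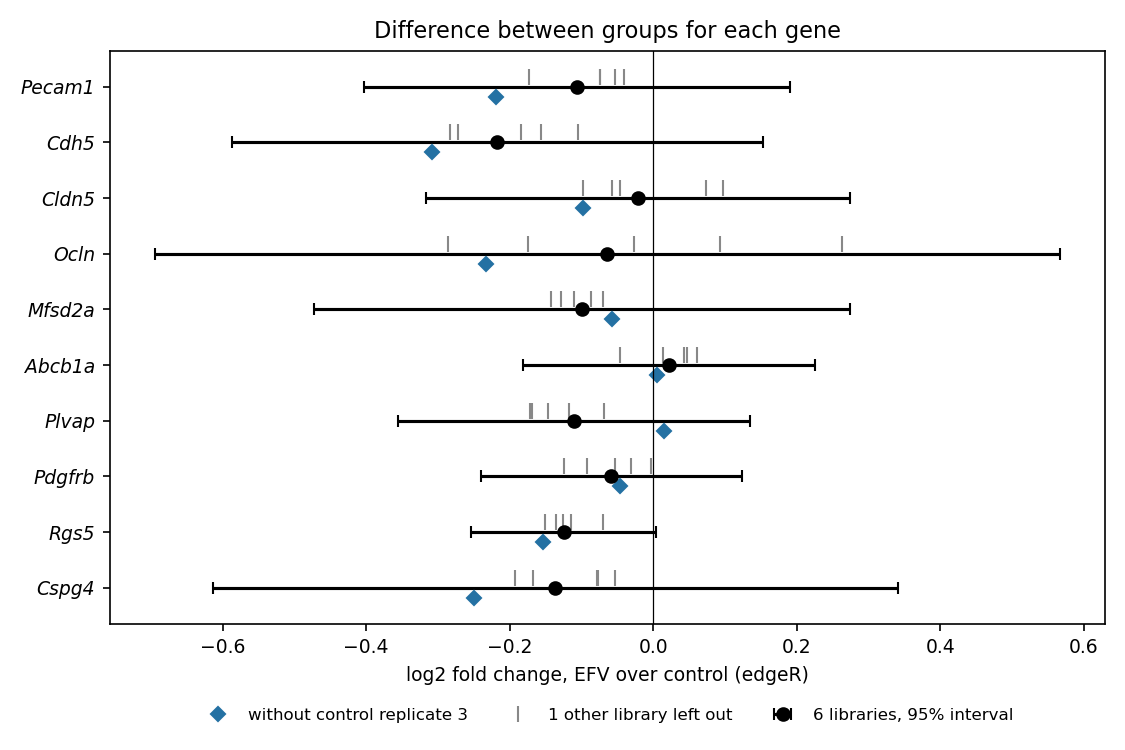
Log2 fold change of EFV over control from edgeR for each gene, with the 95% interval over 6 libraries (black), the value without control replicate 3 (blue) and the values with each other library left out (grey ticks). The 10 intervals all include 0, and Plvap crosses 0 without control replicate 3.

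Pecam1 and Cdh5 hold endothelial cells to each other. Pecam1 (Entrez 18613, chromosome 11, 106654213 to 106715281 in mm10) encodes PECAM-1, an adhesion molecule that platelets and leukocytes carry too. It was measured at 2.73, 2.62 and 2.07 FPKM in control replicates 1, 2 and 3 and at 2.24, 2.18 and 2.54 FPKM in EFV replicates 1, 2 and 3. Control replicates 1 and 2 were the highest and control replicate 3 the lowest of all, so the EFV libraries lay inside the control range. The means were 2.47 ± 0.35 and 2.32 ± 0.19 FPKM (SD, n = 3 pools each). EFV over control gave a log2 fold change of -0.11 (SE 0.13, 95% interval -0.40 to 0.19, edgeR adjusted p = 0.999), and -0.22 without control replicate 3, -0.041 without control replicate 1 and -0.053 without control replicate 2.

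Cdh5 (Entrez 12562, chromosome 8, 104101613 to 104144504) encodes VE-cadherin, the cadherin of endothelial adherens junctions, and is the most specific endothelial gene among the 10. Its FPKM was 1.33, 1.26 and 1.06 in the control libraries and 0.89, 1.12 and 1.16 in the EFV libraries. The highest values were again those of control replicates 1 and 2 and the lowest was that of EFV replicate 1, while control replicate 3 lay below EFV replicates 2 and 3. The log2 fold change was -0.22 (SE 0.16, 95% interval -0.59 to 0.15, edgeR adjusted p = 0.999) on 86 to 129 counts per library, and -0.31 without control replicate 3. Without EFV replicate 1 it was -0.10. With all 6 libraries it was the lowest value among the 10 genes, and its interval reached from a fold of 0.666 to 1.11.

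Cldn5 and Ocln stand for the tight junction. Cldn5 (Entrez 12741, chromosome 16, 18776847 to 18778262) encodes claudin-5, the main claudin of barrier endothelium. It was measured at 8.53, 6.88 and 6.54 FPKM in control and at 6.32, 7.46 and 8.11 FPKM in EFV-treated mice. Control replicate 1 and EFV replicate 3 were high and EFV replicate 1 was low, and the groups overlapped over nearly their whole range. With means of 7.32 ± 1.06 and 7.30 ± 0.91 FPKM (SD, n = 3 pools each), the log2 fold change was -0.021 (SE 0.13, 95% interval -0.32 to 0.27, edgeR adjusted p = 0.999). It was above 0 without control replicate 1 (0.097) and without EFV replicate 1 (0.074), and it was -0.098 without control replicate 3 or without EFV replicate 3.

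Ocln (Entrez 18260, chromosome 13, 100496504 to 100552718) encodes occludin, which seals junctions of the RPE as well as those of endothelium. Its FPKM was 1.59, 0.94 and 0.85 in control and 1.40, 0.83 and 1.04 in EFV-treated mice. In each group replicate 1 was the highest by a wide margin, and the remaining 4 libraries lay between 0.83 and 1.04. The coefficient of variation was 35.8% in control and 26.4% in EFV, against 10.9% that counting alone would give at its mean of 84.5 counts, and in both groups it exceeded that of each of the other 9 genes. Its log2 fold change was -0.064 (SE 0.28, 95% interval -0.69 to 0.57, edgeR adjusted p = 0.999), and it was 0.26 without control replicate 1, 0.093 without EFV replicate 2 and -0.23 without control replicate 3. With control replicate 2, EFV replicate 1 or EFV replicate 3 left out it was -0.18, -0.29 or -0.027.

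Mfsd2a and Abcb1a are transporters of the barrier. Mfsd2a (Entrez 76574, chromosome 4, 122946850 to 122961194) takes up lysophosphatidylcholine that carries docosahexaenoic acid and holds down transcytosis in endothelium, and the RPE expresses it too. It was measured at 1.33, 1.27 and 1.42 FPKM in control and at 1.22, 1.33 and 1.26 FPKM in EFV-treated mice. The groups overlapped, and control replicate 3 was the highest. The coefficients of variation, 5.63% in control and 4.38% in EFV, were below the 12.2% of counting error at its mean of 66.7 counts. Its log2 fold change was -0.099 (SE 0.16, 95% interval -0.47 to 0.27, edgeR adjusted p = 0.999), and -0.057 without control replicate 3.

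Abcb1a (Entrez 18671, chromosome 5, 8567091 to 8748575) encodes the P-glycoprotein that pumps drugs back into the blood at these vessels. Of the 10 genes it was the only one that shares transcript sequence with another gene: of its 4948 windows of 50 bases, 18.6% also occur in transcripts of other genes and 15.5% in those of its neighbour Abcb1b, whereas for the other 9 genes the share was 0%. The longest coding run that the pair has in common within an exon is 186 bases, in exon 13 of 28 of each gene (GENCODE transcripts on GRCm38, plus strand). It is printed below with the rest of each exon in lower case, because a read from the capitals cannot be assigned to either gene.
Abcb1a, chr5:8702369-8702572: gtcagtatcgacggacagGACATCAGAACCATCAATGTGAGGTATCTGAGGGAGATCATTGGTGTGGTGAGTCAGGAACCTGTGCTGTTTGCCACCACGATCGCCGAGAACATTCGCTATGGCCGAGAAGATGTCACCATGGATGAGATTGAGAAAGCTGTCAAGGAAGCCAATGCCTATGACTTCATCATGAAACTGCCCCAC
Abcb1b, chr5:8824689-8824892: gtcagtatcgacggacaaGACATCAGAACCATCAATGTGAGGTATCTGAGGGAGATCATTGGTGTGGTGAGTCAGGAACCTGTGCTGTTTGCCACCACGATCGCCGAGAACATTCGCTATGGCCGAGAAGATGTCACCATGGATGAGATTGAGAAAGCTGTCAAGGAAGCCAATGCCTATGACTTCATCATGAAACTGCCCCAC
The estimated counts of Abcb1a are therefore uncertain, which their fractional values also show. They were rounded to 274, 247 and 256 in control and to 261, 250 and 293 in EFV libraries, and those of Abcb1b to 30, 12 and 32 in control and to 21, 31 and 23 in EFV libraries. Summed over the pair they were 304, 259 and 288 in control and 282, 281 and 316 in EFV-treated mice, and the groups overlapped. In FPKM, Abcb1a was at 2.17, 2.06 and 2.05 in control and at 2.08, 2.01 and 2.36 in EFV-treated mice, with EFV replicate 3 as the only library above the control range. The log2 fold change was 0.022 for Abcb1a (SE 0.090, 95% interval -0.18 to 0.23, edgeR adjusted p = 0.999) and 0.020 for the summed pair (SE 0.086), and that of Abcb1a was -0.046 without EFV replicate 3, 0.061 without EFV replicate 2 and 0.0056 without control replicate 3.

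Plvap (Entrez 84094, chromosome 8, 71497753 to 71511806) encodes the protein of the diaphragms that span fenestrae and caveolae, and in a healthy eye it marks the choriocapillaris and is nearly absent from retinal capillaries. Its level was 6.64, 6.50 and 8.37 FPKM in control and 7.05, 6.25 and 6.85 FPKM in EFV-treated mice. The high library was control replicate 3, and the other 5 lay close together. The log2 fold change was -0.11 (SE 0.11, 95% interval -0.36 to 0.14, edgeR adjusted p = 0.999) with control replicate 3 and 0.015 without it, so the lower mean of the EFV libraries rested on that library. It was -0.17 without control replicate 1 or 2 and -0.068 without EFV replicate 2. Choroid carried along with the RPE and fenestrated vessels within the retina cannot be told apart in these libraries. Per library the FPKM of Plvap over that of Cdh5 was 4.99, 5.16 and 7.90 in control and 7.92, 5.58 and 5.91 in EFV-treated mice, and these ratios overlapped.

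Pdgfrb, Rgs5 and Cspg4 mark pericytes. Pdgfrb (Entrez 18596, chromosome 18, 61045127 to 61085067) encodes the receptor for the PDGF-B that endothelium secretes to recruit pericytes. Its level was 3.72, 3.08 and 3.49 FPKM in control and 3.21, 3.26 and 3.51 FPKM in EFV-treated mice. Control replicates 1 and 2 were the highest and the lowest of the 6, with the EFV libraries between them. The log2 fold change was -0.058 (SE 0.080, 95% interval -0.24 to 0.12, edgeR adjusted p = 0.999), and -0.046 without control replicate 3. It was -0.0027 without control replicate 1, -0.12 without control replicate 2, -0.031 without EFV replicate 1 and -0.092 without EFV replicate 3.

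Rgs5 (Entrez 19737, chromosome 1, 169655501 to 169695813) encodes a regulator of G-protein signalling that is abundant in pericytes and in vascular smooth muscle, and it was the gene with the most counts, 1143 to 1281 per library. Its FPKM was 12.3, 13.5 and 12.2 in control and 11.8, 11.7 and 12.1 in EFV-treated mice. Control replicate 2 was the highest, and each EFV library lay below each control library, the nearest being EFV replicate 3 and control replicate 3. This was the only one of the 10 genes whose groups did not overlap, in scaled counts as in FPKM. Over all genes tested, the groups did not overlap in scaled counts in 8.14%, and the EFV libraries lay below in 4.18%. Its log2 fold change was -0.12 (SE 0.057, 95% interval -0.25 to 0.0042, edgeR adjusted p = 0.999). It passed the limits on p and fold without control replicate 1 (-0.15), where 3.71% of all genes did, and without control replicate 3 (-0.15), where 3.41% did. Without control replicate 2, its highest library, the value was -0.070 and did not pass them. A Poisson model, which counts sampling noise only, called Rgs5 at the adjusted p of 0.05 among 2043 genes in all.

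Rgs5 also differed in the length that was deposited for it, which RSEM averages over the transcripts of a gene by their estimated abundance. The length was 4096 bases in each control library and 4037, 4076 and 4077 bases in EFV replicates 1, 2 and 3, so the estimate put all reads on the longer of its 2 transcripts in control and a part on the shorter in each EFV library. Among the 7929 genes tested that have several transcripts and a length that varied, the EFV lengths lay below all control lengths in 4.75% and did not overlap with them in 9.21%. The lengths of Pecam1, Plvap and Pdgfrb varied as well and overlapped between the groups, and the remaining 6 genes had a single transcript. Length was compared without a test.

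Cspg4 (Entrez 121021, chromosome 9, 56865104 to 56899870) encodes the NG2 proteoglycan of pericytes and of oligodendrocyte precursors. It was measured at 0.26, 0.26 and 0.20 FPKM in control and at 0.19, 0.23 and 0.24 FPKM in EFV-treated mice, on 38 to 51 counts. Control replicate 3 and EFV replicate 1 were low, and the groups overlapped. Its log2 fold change was -0.14 (SE 0.21, 95% interval -0.61 to 0.34, edgeR adjusted p = 0.999), and -0.25 without control replicate 3. It was -0.078 and -0.077 without control replicates 1 and 2 and -0.053 without EFV replicate 1.

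Ratios within a library set the genes against each other without a test. The FPKM of Cldn5 over that of Cdh5 was 6.41, 5.46 and 6.17 in control and 7.10, 6.66 and 6.99 in EFV-treated mice. The EFV ratios were all above the control ratios, with means of 6.01 ± 0.50 in control and 6.92 ± 0.23 in EFV (SD, n = 3 pools each). Of the 11 ratios formed (each gene over Cdh5, and Rgs5 and Cspg4 over Pdgfrb) it was the only one whose groups did not overlap. Over Cdh5, 9.25% of all other genes tested had ratios that did not overlap, and in 9.11% the EFV ratios were above, beside 1 of the 9 ratios over Cdh5 here. The FPKM of Rgs5 over that of Pdgfrb was 3.31, 4.38 and 3.49 in control and 3.67, 3.58 and 3.44 in EFV-treated mice, and Cspg4 over Pdgfrb lay between 0.0573 and 0.0844 in all libraries.

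The genes of a cell type did not all vary alike over the 6 libraries. In counts scaled to library size, Pecam1, Cdh5, Cldn5, Ocln and Pdgfrb were highest in control replicate 1, and Cdh5, Cldn5, Mfsd2a, Rgs5 and Cspg4 were lowest in EFV replicate 1. The mean profile of Pecam1, Cdh5 and Cldn5, each scaled to unit SD, was 1.19, 0.53 and -0.83 in control and -1.21, -0.15 and 0.47 in EFV-treated mice. That of Pdgfrb, Rgs5 and Cspg4 was 0.86, 0.59 and -0.11 in control and -1.04, -0.37 and 0.077 in EFV-treated mice. Averaging left an SD of 0.905 in the endothelial profile and 0.683 in the pericyte profile, where 1 would mean that the 3 genes vary alike, and each mean was scaled again to unit SD before other genes were compared with it. In both profiles control replicate 1 was the highest library and EFV replicate 1 the lowest, and the groups overlapped. Among 12291 genes of at least 1 FPKM, those nearest to the endothelial profile over the 6 libraries were Rexo4, Cep44 and Mrps21, with root mean square differences of 0.12, 0.14 and 0.19 SD. Nearest to the pericyte profile were Cntn5, Adgrl4 and Syt5, with 0.11 SD each. Adgrl4, an adhesion receptor of endothelial cells, was measured at 1.85, 1.79 and 1.62 FPKM in control and at 1.41, 1.52 and 1.66 FPKM in EFV-treated mice.

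Around these genes, 102 further vascular genes were followed in 9 lists. Of the 97 that passed the filter, 1 was past the limits on p and fold, beside 3.01% of all genes. None passed the adjusted p of edgeR. The log2 fold change was above 0 for 50 and below 0 for 47, and the median was 0.0010, beside 0.0012 over all genes. Without control replicate 3 the median was 0.022, and 1 gene was past the limits in each direction, where 3.41% of all genes were past them. In scaled counts the groups did not overlap for 9 of the 97, beside 8.14% of all genes. Exons of Egfl7, Nos3, Ecscr, Ctnnb1, Adgra2, Ndufa4l2, Tagln and Ackr1, genes of these lists named below, overlap exons of other protein-coding genes in the annotation, so their levels are uncertain.

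**Figure D3:**
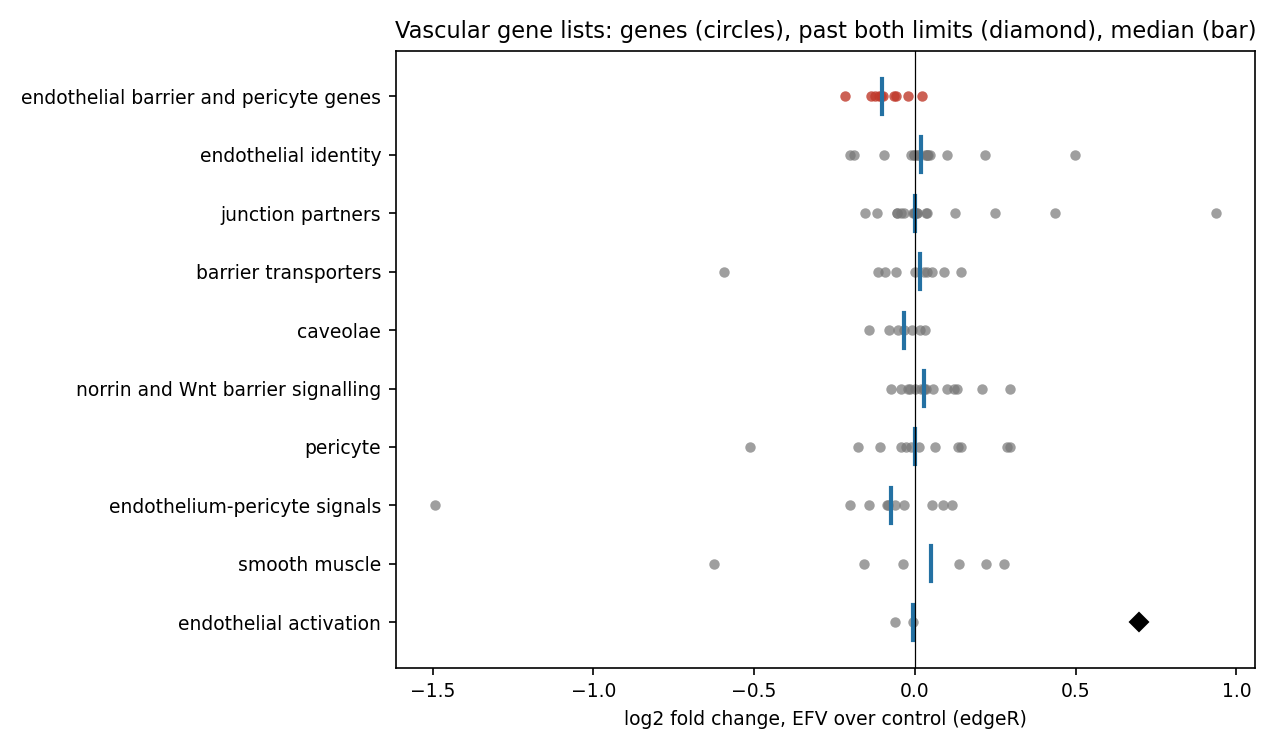
Log2 fold change of EFV over control from edgeR for the 10 genes (red) and for the tested genes of the 9 vascular lists (grey), with the median of each list as a blue bar and the gene past the limits on p and fold as a diamond. The medians of the 9 lists lie between -0.073 and 0.050, and between -0.012 and 0.078 without control replicate 3, which is not drawn. Omissions of an EFV library, also not drawn, moved some medians further. Smooth muscle was at 0.13 without EFV replicate 2 and endothelial identity at 0.11 without EFV replicate 1. Endothelium-pericyte signals were at -0.084 without EFV replicate 3. The diamond is Icam1 at 0.70.

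In the list of endothelial identity, 0 of 16 genes were past the limits in either direction, and the median was 0.020, or -0.0036 without control replicate 3. The median of this list was 0.11 without EFV replicate 1 and -0.055 without EFV replicate 2. Its most abundant genes were Esam, a tight junction adhesion molecule at a mean of 7.40 FPKM, Egfl7 at 4.35 FPKM and Nos3, the endothelial nitric oxide synthase, at 3.34 FPKM. The lowest p in edgeR was that of Tie1, a receptor of the angiopoietin pathway measured at 0.87, 0.81 and 0.74 FPKM in control and at 0.65, 0.71 and 0.79 FPKM in EFV-treated mice, which overlapped. Its log2 fold change was -0.19 (SE 0.17), -0.25 without control replicate 3 and -0.12 without EFV replicate 1. Next was Ecscr with 0.50 (SE 0.47), 0.33 without control replicate 3, above 1 without control replicate 1, 0.24 without control replicate 2 and 0.20 without EFV replicate 2.

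Among 18 junction partners 0 were past the limits in either direction, and the median was -1.4e-05, or 0.015 without control replicate 3. Ctnnb1 (82.8 FPKM) and Jam2 (37.1 FPKM) were among the most abundant, and neurons, glia and RPE express them too. Ptprb encodes VE-PTP, the phosphatase that stabilises VE-cadherin, and it was measured at 1.42, 1.37 and 1.36 FPKM in control and at 1.32, 1.19 and 1.27 FPKM in EFV-treated mice. Each EFV library was below each control library, with a log2 fold change of -0.16 (SE 0.070, edgeR adjusted p = 0.999). It was -0.17 without control replicate 3, and past the limits on p and fold without EFV replicate 1 (-0.19). Lsr, a protein of tricellular junctions, had a log2 fold change of 0.94 (SE 0.55) at a mean of 0.23 FPKM, 0.64 without control replicate 3, and 1.95 without control replicate 1, where it was past the limits.

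Of 10 barrier transporters 0 were past the limits in either direction (median 0.015, and 0.032 without control replicate 3). Slc6a6, the taurine transporter, was the most abundant at 242 FPKM, followed by Slc2a1 at 84.9 FPKM and the transferrin receptor Tfrc at 32.0 FPKM. Slc2a1 encodes the glucose transporter GLUT1 of endothelium, Müller cells and RPE, and was measured at 87.4, 87.5 and 86.4 FPKM in control and at 77.5, 85.5 and 84.9 FPKM in EFV-treated mice. The groups did not overlap, and the log2 fold change was -0.092 (SE 0.052, edgeR adjusted p = 0.999), -0.10 without control replicate 3 and -0.046 without EFV replicate 1, the lowest library. For Slco1a4, an organic anion transporter, it was 0.14 (SE 0.087), and 0.18 without control replicate 3. Without control replicate 3, Slc38a5, an amino acid transporter of retinal endothelium, was the only one of these 10 past the limits, and lower in EFV (-0.92, beside -0.60 with all libraries, -0.37 without control replicate 1 and -0.39 without EFV replicate 1). It was measured at 0.94, 0.87 and 0.36 FPKM in control and at 0.34, 0.54 and 0.57 FPKM in EFV-treated mice, which overlapped.

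Caveolae carry transcytosis across endothelium, and 0 of 7 caveolar genes were past the limits in either direction (median -0.033, and -0.0092 without control replicate 3). Pacsin2 (63.1 FPKM), Cav1 (33.1 FPKM) and Cav2 (9.85 FPKM) were the most abundant, and Müller cells also express Cav1. Ehd2, which sits at the caveolar neck, was measured at 3.55, 3.52 and 3.78 FPKM in control and at 3.22, 3.40 and 3.31 FPKM in EFV-treated mice, with a log2 fold change of -0.14 (SE 0.083, edgeR adjusted p = 0.999), and -0.12 without control replicate 3. Its groups did not overlap.

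Norrin, which Müller cells secrete, acts through Frizzled-4 and beta-catenin to keep the barrier state of retinal endothelium. In this list 0 of 15 genes were past the limits in either direction, with 10 above 0 and a median of 0.028, or 0.078 without control replicate 3. Adgra2 (7.64 to 8.36 FPKM over the libraries), Axin2 (6.83 FPKM) and Lrp6 (6.81 FPKM) were the most abundant. Apcdd1, a target and inhibitor of Wnt signalling in barrier vessels, was measured at 6.07, 5.75 and 6.11 FPKM in control and at 6.65, 6.55 and 6.53 FPKM in EFV-treated mice. The EFV libraries were all above the control libraries, and the log2 fold change was 0.12 (SE 0.063, edgeR adjusted p = 0.999), and 0.14 without control replicate 3. For Tcf7 it was 0.30 (SE 0.28), 0.18 without control replicate 3 and 0.022 without EFV replicate 3, and 0.54 without control replicate 1.

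Of 12 further pericyte genes 0 were past the limits in either direction, and the median was 3.1e-05, or 0.0013 without control replicate 3. Vtn (494 FPKM) and Cox4i2 (30.8 FPKM) were far above the other pericyte genes, and photoreceptors are known to express Vtn. Mcam followed at 1.67 FPKM. Ndufa4l2 was measured at 1.97, 1.15 and 2.39 FPKM in control and at 1.19, 1.29 and 1.43 FPKM in EFV-treated mice. Control replicates 1 and 3 were high and control replicate 2 was the lowest, and the log2 fold change was -0.51 (SE 0.29, edgeR adjusted p = 0.999), -0.75 and past the limits without control replicate 2, and -0.28 without control replicate 3.

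The signals between endothelium and pericytes, 10 genes, had 0 past the limits in either direction and a median of -0.073. Without control replicate 3 the median was 0.00036, so its distance from 0 rested on that library. Cdh2 (31.5 FPKM), the N-cadherin that joins the cell types, Jag1 (19.4 FPKM) and S1pr1 (11.8 FPKM) were the most abundant, and none of them is particular to vessels. Nid1 encodes the basement membrane protein nidogen-1 and was measured at 0.41, 0.38 and 3.42 FPKM in control and at 0.38, 0.43 and 0.70 FPKM in EFV-treated mice. Control replicate 3 alone was high, so the log2 fold change was -1.49 (SE 0.77) with it and 0.32 without it. Without control replicate 1 or 2 it was -1.93 or -1.94 and past the limits.

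Of 8 smooth muscle genes 6 were tested and 0 were past the limits in either direction (median 0.050, and 0.077 without control replicate 3). The median was -0.0017 without EFV replicate 1 and 0.13 without EFV replicate 2. Mylk, the myosin light chain kinase, was the most abundant at 16.3 FPKM. Acta2, the smooth muscle actin, was measured at 1.62, 1.59 and 4.41 FPKM in control and at 2.04, 1.36 and 1.60 FPKM in EFV-treated mice. Control replicate 3 was again the high library, and the log2 fold change was -0.62 (SE 0.38) with it and 0.035 without it; without control replicate 1 it was -0.87 and past the limits. Tagln was measured at 1.86, 1.37 and 1.88 FPKM in control and at 2.32, 1.97 and 1.98 FPKM in EFV-treated mice, which did not overlap, with a log2 fold change of 0.28 (SE 0.19), 0.35 without control replicate 3 and 0.15 without control replicate 2.

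Of 6 endothelial activation genes 4 had a mean below 1 FPKM, and 3 were tested (median -0.0055, and -0.012 without control replicate 3). Sele and Selp, the endothelial selectins, were at 0 in some libraries. Ackr1 was listed at 58.5 FPKM, but Cadm3, whose exons overlap its own on the same strand, was at 88.9 FPKM. Vcam1 was at 3.31 FPKM. Icam1, the adhesion molecule that leukocytes bind on activated endothelium, was measured at 0.30, 0.24 and 0.44 FPKM in control and at 0.47, 0.66 and 0.47 FPKM in EFV-treated mice. It was the 1 vascular gene of 97 past the limits, beside 3.01% of all genes. It was higher in each EFV library than in each control library, with a log2 fold change of 0.70 (SE 0.31, edgeR adjusted p = 0.999). Without control replicate 3 it was 0.96 and past the limits. Without control replicate 1 (0.64), control replicate 2 (0.52), EFV replicate 1 (0.79), EFV replicate 2 (0.50) or EFV replicate 3 (0.78) it was not past them. The call was also lost in DESeq2 (0.70), with the replicate number as a block (0.70) and without the filter on low counts (0.70).

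Other cell types of the eye moved between the libraries as well. The RPE list, 11 genes with Otx2 as the most abundant (138 FPKM, a gene of photoreceptors and bipolar cells too), summed to 263, 217 and 256 FPKM in control and to 269, 266 and 257 FPKM in EFV-treated mice. Rpe65 and Lrat were past the limits, both higher in EFV, 10 of 11 log2 fold changes were above 0 and the median was 0.16, beside 0.0012 over all genes. The median was 0.31 without control replicate 3 and 0.035 without control replicate 2, the library with the lowest sum. Slc16a3, a lactate transporter on this list that other cells express too, was past the limits and lower in EFV without control replicate 3 (-0.21). Rgr was past them and higher in EFV without control replicate 1 or EFV replicate 1. Lrat was not past them without control replicate 1 (0.55), control replicate 2 (0.42), EFV replicate 1 (0.60) or EFV replicate 2 (0.61). Rpe65 had a log2 fold change of 0.58 with all libraries, 0.29 without control replicate 2 and 0.83 without control replicate 3. It was not past the limits without control replicate 1 (0.65), EFV replicate 1 (0.62), EFV replicate 2 (0.55) or EFV replicate 3 (0.55). Ocln and Mfsd2a, which the RPE shares, had log2 fold changes below 0, and the part of the RPE in their values was not tested.

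Pigment cell markers (most abundant Dct) summed to 6.46, 3.12 and 5.20 FPKM in control and to 4.70, 9.59 and 8.23 FPKM in EFV-treated mice, with 0 of 5 past the limits. The log2 fold change of Dct was 0.94 (SE 0.42). It was past the limits without control replicate 1 (1.19), without EFV replicate 1 (1.31), with total-count scaling (0.95), without the filter (0.94) and in the Poisson model (0.92), and it was 0.53 without EFV replicate 2. The lens list had 7 of 7 tested genes past the limits, all lower in EFV, with a median log2 fold change of -3.62. There were 6 of 7 with the replicate number as a block (median -2.44), 3 without EFV replicate 3 (-3.96), and 0 without EFV replicate 1 (-3.59), without EFV replicate 2 (-3.24) or in limma (-1.72 and -1.57). DESeq2 (-3.62) gave no p for any of the 7. Without control replicate 3 there were 0 of 7 and the median was -0.072. That was the library that was also the highest for Plvap, Mfsd2a, Nid1 and Acta2. The part of lens tissue in these values was not tested.

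Some endothelial markers, such as Pecam1, are shared with blood cells, so lists of blood cells were followed too. The red blood cell list (most abundant Hba-a1, 80.4 FPKM) summed to 264, 131 and 173 FPKM in control and to 127, 114 and 289 FPKM in EFV-treated mice. Control replicate 1 and EFV replicate 3 were the highest in it. In FPKM they were also the highest libraries for Cldn5, Abcb1a, Pdgfrb and Esam. The part of blood content in the values of these genes was not tested. None of 5 genes in the red blood cell list was past the limits. Hba-a1 and Hbb-bs were past them, both lower in EFV, without EFV replicate 3 (-0.70 for Hba-a1) and in the Poisson model (-0.21 for Hba-a1). The platelet markers Pf4, Ppbp and Gp9 were each at 0 in some libraries, and the list summed to 6.40 to 9.47 FPKM, nearly all from Gp1bb, a gene that was at 7.37 FPKM. The list of microglia and leukocytes (most abundant C1qa, 4.41 FPKM) had 0 of 7 past the limits. It summed to 12.8, 12.2 and 10.7 FPKM in control and to 11.5, 10.9 and 11.8 FPKM in EFV-treated mice. Control replicates 1 and 2 were the highest, as they were for Pecam1 and also for Cdh5 and Cspg4. The part of leukocytes in the values of Pecam1 was not tested.

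Oligodendrocyte precursor markers were followed because these cells also express Cspg4, and their part in its values was not tested. Of 6 such markers Olig2 was in none of the libraries, Olig1 and Gpr17 were at 0 in some, and the list, led by Bcan (3.65 FPKM), summed to 4.62, 4.59 and 5.13 FPKM in control and to 4.84, 5.65 and 5.82 FPKM in EFV-treated mice, with 0 of 3 past the limits. Bcan was past them, higher in EFV, without EFV replicate 1 (0.24) and in the Poisson model (0.15). In the oligodendrocyte list (most abundant Mbp, 9.68 FPKM) Mog and Mobp were at 0 in some libraries, and 1 of 3, Mbp, was past the limits and higher in EFV, though not without control replicate 1 (0.20), control replicate 3 (0.17) or EFV replicate 3 (0.11), and not with the replicate number as a block (0.20). The list summed to 17.4, 18.7 and 18.6 FPKM in control and to 20.9, 18.6 and 25.1 FPKM in EFV-treated mice. Fibroblast markers summed to 2.92, 2.55 and 3.18 FPKM in control and to 3.93, 3.23 and 3.40 FPKM in EFV-treated mice. The most abundant was Pdgfra (1.16 FPKM), which is on the oligodendrocyte precursor list too. Lum and Dpt were at 0 in some libraries, and 1 of 5, Col1a2, was past the limits and higher in EFV. Col1a2 was not past them without control replicate 1 (0.44), control replicate 2 (0.36), EFV replicate 1 (0.52) or EFV replicate 2 (0.42).

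The list of astrocytes, whose endfeet touch retinal vessels, had 0 of 4 past the limits, with Aqp4 as its most abundant gene (30.1 FPKM) and sums of 39.6, 37.9 and 38.9 FPKM in control and 42.9, 38.2 and 37.0 FPKM in EFV-treated mice. Its lowest p was that of Gfap (log2 fold change 0.40, SE 0.21, edgeR adjusted p = 0.999), which was past the limits without EFV replicate 2 (0.60), in DESeq2 (0.40), in the Poisson model (0.39) and with the replicate number as a block (0.38). Without EFV replicate 1, its highest library, Gfap was at 0.20, and without control replicate 2 at 0.26. The Müller cell list, with 0 of 5 past the limits, summed to between 1445 and 1558 FPKM.

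**Figure D4:**
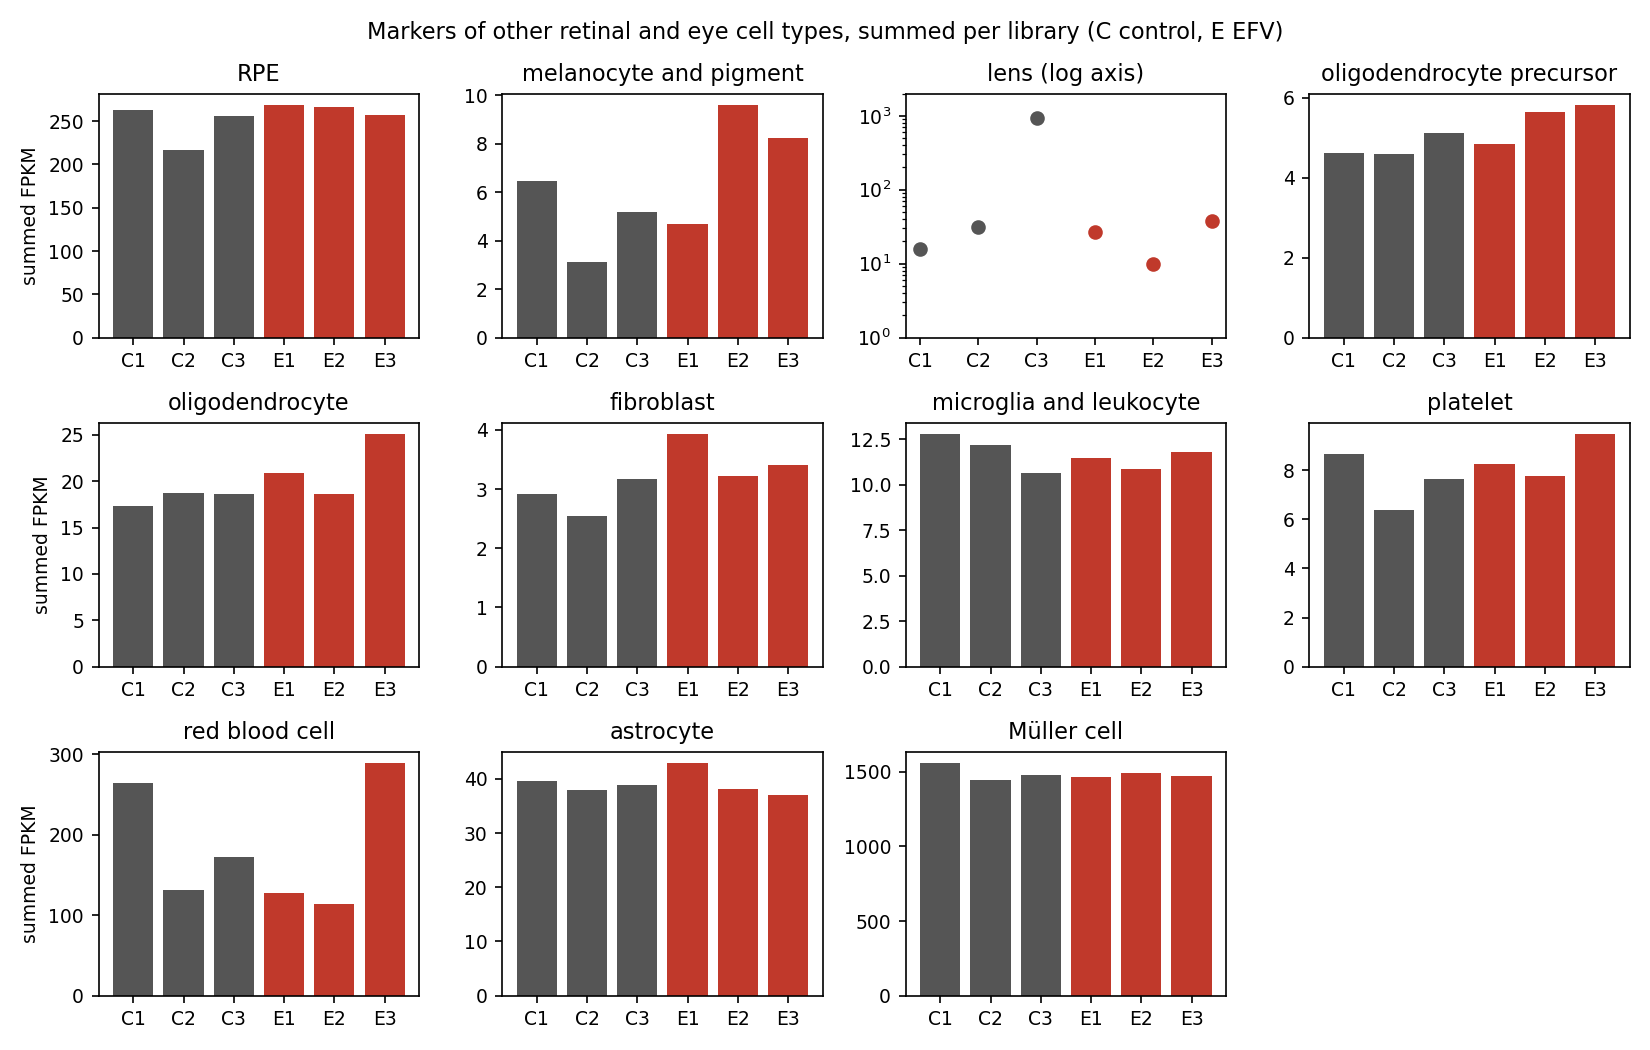
Summed FPKM of the markers of 11 other cell types in control replicates 1 to 3 (C1 to C3, grey) and EFV replicates 1 to 3 (E1 to E3, red); the lens list is drawn as points on a log axis. Control replicate 3 stands apart in the lens list at 932 FPKM, and the red blood cell list is highest in E3 (289 FPKM) and C1 (264 FPKM).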

How the data were processed

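RNA of retina plus RPE was measured in 6 libraries, grouped as control and EFV by the sample titles, 3 pools each. The authors made the deposited expected counts and FPKM values per gene with RSEM 1.2.12 after alignment with Bowtie2 2.2.5 (genome build mm10; HISAT2 2.0.4 is also named in the submitters' processing notes). The deposited length of a gene is an average over its transcripts. The FPKM scales the count to transcript length and library total, and a gene absent from a library was taken as 0. Strandedness is not given in the sources used here.

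Expected counts were rounded and tested with edgeR 4.0.16 in R 4.3.3 (TMM scaling, glmQLFit and glmQLFTest, group as the only term, two-sided) on genes that reached 10 counts in 3 or more libraries, with Benjamini-Hochberg adjustment over all of them. The common biological coefficient of variation was 0.0983. Limits were an unadjusted p of 0.05 with a log2 fold change of 0.098 in size. An exact permutation test of 3 against 3 cannot give less than 0.1, so p-values rest on the model. Depth was near equal (23455167 to 24590278 counts), and counting error weighs most on Cspg4 and Mfsd2a. The steps were tested on simulated data, and the outcome is not reported here.

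The alternatives were RLE, total-count and upper-quartile scaling, no filter on low counts, DESeq2 1.42.0, limma 3.58.1 on log2(FPKM + 0.1) and log2(FPKM + 1), the replicate number as a block, a model with Poisson error only, each library left out in turn, and Abcb1a and Abcb1b summed. Genes named were the 10 genes; from each vascular list the 3 most abundant, the 2 with the lowest p and any past the limits; from each list of another cell type the most abundant and the lowest p; and 3 genes nearest to each of 2 mean profiles by root mean square difference of scaled log2 CPM (counts per library total), with each mean scaled again to unit SD. Cadm3, Slc38a5, Slc16a3, Rpe65, Rgr, Bfsp2, Hbb-bs and the genes listed at 0 were named, and the transcript lengths of Rgs5 and the exon overlaps described, after their values were seen. Some items that this rule names are not reported here. The 10 genes and the lists were chosen with earlier results of these data known. Shared sequence was counted in GENCODE transcripts on GRCm38.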

Additional observations from a re-analysis of the deposited data

How the results depend on the processing

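The call of 0 genes at the adjusted p of edgeR held under the other scalings, without the filter, in both limma fits and under 5 of 6 omissions of a library. The count was 11 with DESeq2, 2043 with the Poisson model and 0 to 1 over the omissions (1 without EFV replicate 1). Of the 10 endothelial barrier and pericyte genes, 0 passed the adjusted p except 1, Rgs5, under the Poisson model, whose error is that of counting alone. At the limits on p and fold the count of the 10 was 1, again Rgs5, under the Poisson model, where 2305 of 15537 genes passed. Over the omissions that count was 0 to 1, where 389 to 576 of all genes passed, and the cause was not tested.

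The labels do not say whether same-numbered libraries belong together. Their deviations from the group means correlated at 0.125, 0.083 and 0.099 for replicates 1, 2 and 3, and those of libraries with different numbers at -0.101 to -0.006; what the numbers share was not tested. With the replicate block, 0 genes passed the adjusted p, 520 had an unadjusted p of at most 0.05 beside 472 without it, and the log2 fold change of Jam2 was 0.0001. The block put Gfap past the limits on p and fold and took Icam1, Mbp and the lens gene Bfsp2 from them.

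Of 67 named genes, 44 kept the sign of the log2 fold change under each alternative. The other 23 did not, 4 of them outside the omissions. Over the omissions the values ran from -0.098 to 0.097 for Cldn5, -0.29 to 0.26 for Ocln, -0.046 to 0.061 for Abcb1a, -0.17 to 0.015 for Plvap, -0.029 to 0.091 for Esam, -0.065 to 0.055 for Egfl7, -0.060 to 0.097 for Nos3, -0.033 to 0.032 for Ctnnb1, -0.040 to 0.038 for Jam2, -0.016 to 0.066 for Pacsin2, -0.013 to 0.059 for Cav1, -0.087 to 0.062 for Cav2, -0.050 to 0.015 for Adgra2, -0.0076 to 0.067 for Axin2, -0.024 to 0.088 for Lrp6, -0.050 to 0.32 for Mcam, -0.0002 to 0.12 for S1pr1, -1.94 to 0.32 for Nid1, -0.080 to 0.029 for Mylk, -0.87 to 0.035 for Acta2, -0.087 to 0.041 for Ackr1, -4.20 to 0.25 for Cryba1 and -0.70 to 0.068 for Hba-a1. With total-count scaling Egfl7 was at 0.013, Jam2 at 0.015 and Ackr1 at 0.011. With limma on log2(FPKM + 0.1) and log2(FPKM + 1), Egfl7 was at 0.011 and 0.0092, Jam2 at 0.016 and 0.016, Adgra2 at 0.0040 and 0.0035 and Ackr1 at 0.0088 and 0.0087. Jam2 was at 0.0014 with upper-quartile scaling and at 0.0003 in the Poisson model. For Cryba1, Crybb3 and the other lens genes DESeq2 gave no p, and in both limma fits none of them was past the limits. The Poisson model put 16 more of the named genes past the limits than edgeR did.

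With 3 pools a group, the 95% intervals ran from folds of 0.839 to 1.00 for Rgs5 and from 0.618 to 1.48 for Ocln. At this depth counting alone gives a coefficient of variation of 2.89% for Rgs5 and 12.2% for Mfsd2a.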
